A study of Homo sapiens with 2 samples.

Results

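GP73, the Golgi membrane protein that GOLM1 encodes, is the gene product targeted in these cells, and its expression was examined here together with that of 5 related or functionally linked genes: GOLM2, GOLIM4, GOLPH3, GOLPH3L and FURIN. The members were chosen by name, with earlier results of these data known. Each of the 6 had exactly 1 row of its own on the array, out of 22413 genes with such a row, and no row annotated to several genes held any of them. The cells were MHCC97H, an established human liver cancer line. The control cells are labelled as having high GP73, and the other cells as having GP73 knocked down. The sample titles are MHCC97Hshv for the control and MHCC97HshGP73 for the knockdown, and the labels say no more of what was introduced into the cells. Each group was 1 array, so no value below has a replicate error and no test between the groups was possible. The labels do not say whether the knockdown cells were a pool or 1 clone, and the knockdown sequence was not used here.

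GP73 crosses the membrane once and has most of its mass in the Golgi lumen. It cycles through endosomes, and the proprotein convertase furin can cut it near the membrane, which releases a soluble form that is measured in serum as a marker of liver disease and hepatocellular carcinoma. GOLM2, formerly CASC4, is its closest relative in the genome, and GOLIM4, also known as GPP130, is another single-pass Golgi protein that returns from endosomes and is sent to lysosomes when manganese is high. GOLPH3 and its paralog GOLPH3L are not membrane-spanning. They bind phosphatidylinositol 4-phosphate on the Golgi surface, and GOLPH3 keeps glycosyltransferases in the Golgi stack.

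All values are log2 signals as the authors deposited them, and all differences are the knockdown array minus the control array. A gene was called measured when its higher signal reached 5.84, the median of that quantity over all genes, and 11207 genes were. Across those genes the median difference was -0.01 and its SD 0.262, and 50.5% of genes were lower in the knockdown array. The only available scale of error was the SD of 0.133 between the differences of 2 rows of the same gene, from 100 genes with such a pair. That SD says nothing of how far separate cultures, RNA extractions or hybridisations would differ, and probes shared by such rows, which were not looked for, would make it too small. Among liver and epithelial markers, KRT8 and KRT18, the keratins of simple epithelium, stood at 10.9 in the control array, whereas the hepatocyte product ALB and the fetal liver protein AFP were below the floor in both arrays, at 4.35 and 2.56 in the control. The largest differences among the measured genes of this marker list were those of APOB, FOXA2, CDH1 and APOA1. APOB, an apolipoprotein, stood at -0.47, with a knockdown signal of 5.80 that was below the floor. FOXA2, a liver transcription factor, stood at -0.26, CDH1, the epithelial cadherin, at 0.24 and APOA1, another apolipoprotein, at 0.14. Of the 7 fibroblast markers 1 was measured, 5 were below the floor and 1 had no row of its own. Of the 6 endothelial markers 3 were measured and 3 were below the floor. Of the 6 leukocyte markers none was measured, with 5 below the floor and 1 without a row of its own. COL1A1, a fibrillar collagen, stood at 0.17, and the endothelial genes PECAM1, CLDN5 and KDR at -0.72, -0.08 and -0.06, with PECAM1 below the floor in the knockdown array. The control signals of these measured markers lay between 5.92 for COL1A1 and 6.43 for CLDN5, against a floor of 5.84.

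GOLM1 was the only member with a large difference. Its log2 signal was 9.13 in the control cells and 7.46 in the knockdown cells. The knockdown signal was thus 31.5% of the control signal on the linear scale, or 3.18-fold lower. The difference of -1.67 was 12.5 times the SD between rows of 1 gene. It was the lowest of all 11207 measured genes in the signals as deposited, and the second lowest, behind ADH1C, with quantile normalisation and after removal of the trend over signal. The knockdown signal lay 1.62 above the floor, so the GOLM1 row kept a signal well within the measured range. By level, GOLM1 had rank 559 in the control and rank 3238 in the knockdown cells, and so went from the top 4.99% of measured genes to the top 28.9%. A level rank orders rows with different probes, so it describes the place of a row within the array and not the abundance of one transcript against another.

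**Figure D1:**
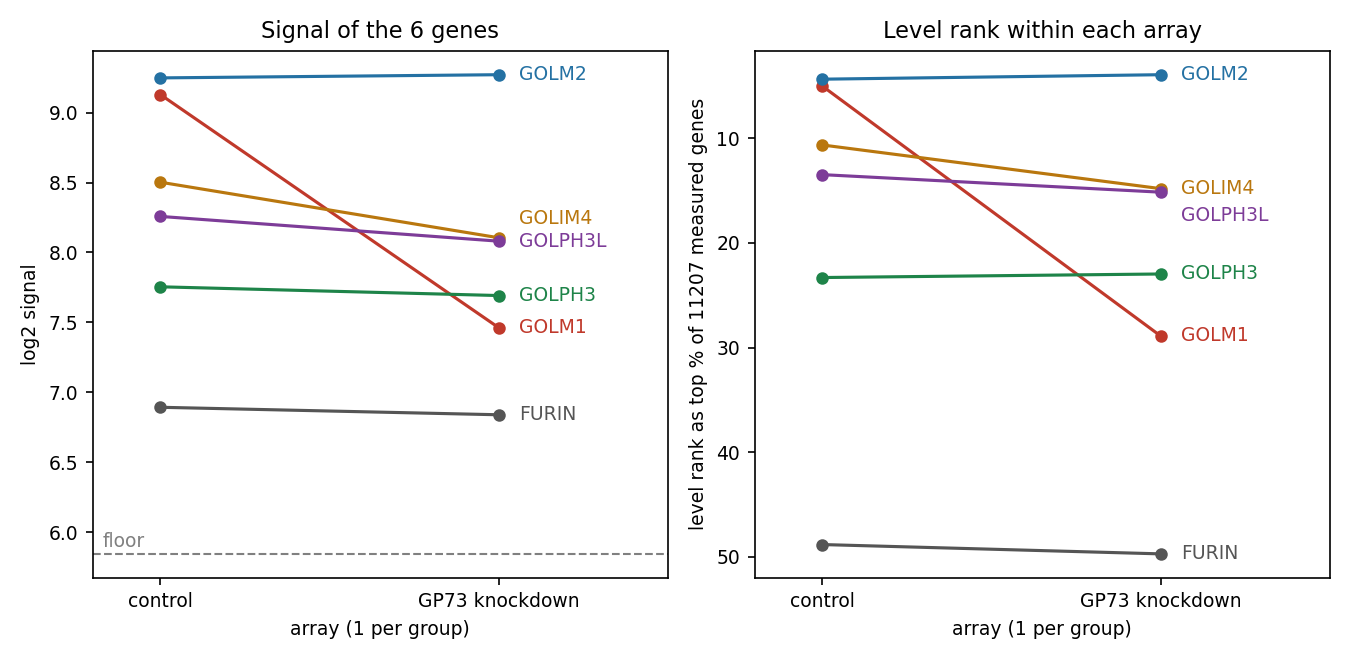
Log2 signal (left) and level rank as a top percentage of the 11207 measured genes (right) of the 6 genes in the control and the GP73 knockdown array; each point is 1 array and lines join the values of 1 gene. The line of GOLM1 drops from 9.13 to 7.46 and crosses those of GOLIM4, GOLPH3L and GOLPH3, while GOLM2 stays in the top 4.34% and 3.91%.

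GOLM2, the closest relative of GOLM1, did not share this difference. Its signals were 9.25 and 9.27, a difference of 0.02 that was smaller than the SD between rows of 1 gene. Its level rank was 486 in control and 438 in knockdown cells. The difference of GOLM1 minus that of GOLM2 was -1.69, so the rows of the 2 relatives behaved apart. The direction of the GOLM2 difference is not established, since it was -0.06 with each array centred on its median.

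GOLIM4 had the second lowest difference of the 6. Its signal of 8.50 in control cells compared with 8.11 in knockdown cells, which is -0.40 on the log2 scale, or 1.32-fold lower. This is 2.98 times the SD between rows of 1 gene, but 6.74% of all measured genes had a lower difference. Among the 500 genes nearest to it in mean signal, 48 were lower. GOLIM4 was thus in the lower tail without standing apart from genes of its signal level, and its level rank went from 1191 to 1659.

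The paralogs GOLPH3 and GOLPH3L differed little between the arrays. GOLPH3 had signals of 7.75 and 7.69, a difference of -0.06, and level ranks of 2612 in control and 2574 in knockdown cells. The median of the 500 genes nearest to it in signal was -0.08, so GOLPH3 lay at the centre of genes like it in level. GOLPH3L, a regulator most studied in secretory cells, had signals of 8.26 and 8.08, a difference of -0.18. Of the 500 genes nearest to GOLPH3L, 164 were lower. The difference of GOLPH3L minus that of GOLPH3 was -0.11, smaller in size than the SD between rows of 1 gene.

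FURIN, the convertase that cuts GP73, had the lowest signal of the 6 rows. Its signals were 6.89 and 6.84, a difference of -0.05. Its level ranks were 5474 and 5574, near the middle of the measured genes. Of the 500 genes nearest to FURIN in signal 214 were lower.

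Taking the 6 genes as counts, 5 were lower and 1 was higher in the knockdown array. GOLM1 alone was at least 1.5-fold lower, and it was also the only one at least 2-fold lower. Over all measured genes 174, or 1.55%, were at least 1.5-fold lower and 15, or 0.134%, at least 2-fold lower. None of the 6 was at least 1.5-fold higher, against 1.08% of measured genes at that threshold and 0.161% at 2-fold. GOLM1 was the targeted gene, and none of the other 5 passed 1.5-fold in either direction. Their median difference was -0.06, and 3 of the 5 differences were smaller than the SD between rows of 1 gene.

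Differences followed signal level, and this bears on the small negative values. With measured genes split evenly into 10 bins by mean signal, the median was 0.15 in the lowest bin and -0.08 in the 9th, and the share of genes that were lower ran from 31.0% in the lowest bin to 63.6% in the 8th. The 6 genes had mean signals in the upper 5 bins. With the trend removed, GOLIM4 stood at -0.32, GOLPH3L at -0.10, FURIN at -0.03 and GOLPH3 at 0.01, while GOLM1 stood at -1.59.

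**Figure D2:**
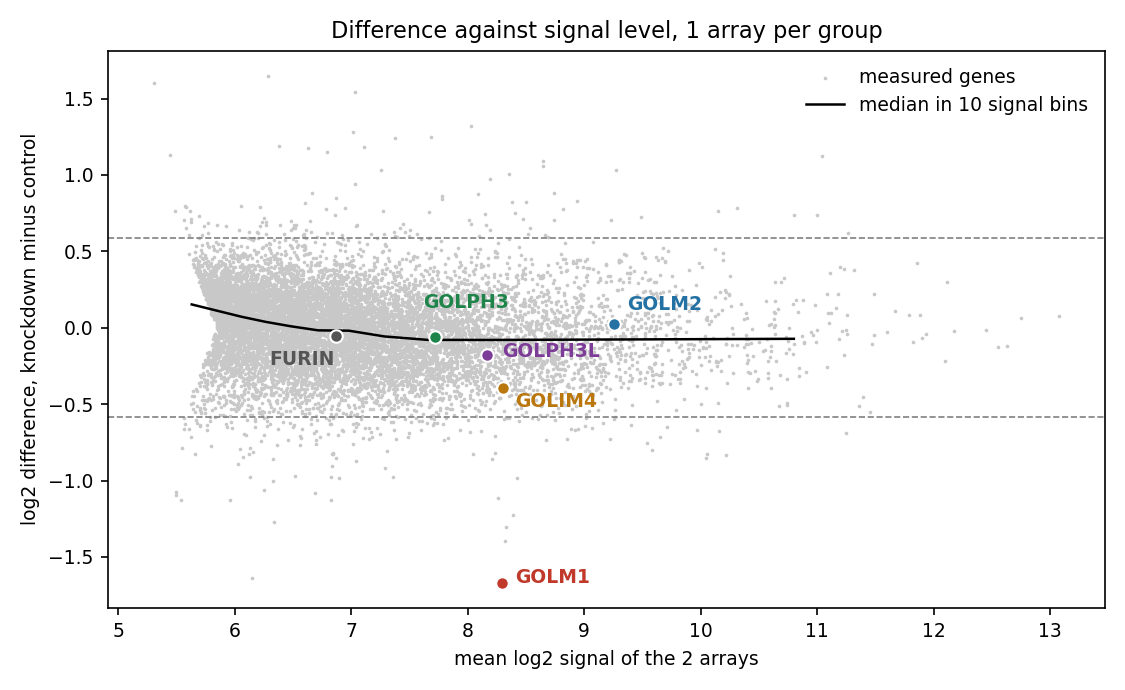
Log2 difference (knockdown minus control) against the mean log2 signal of the 2 arrays for the 11207 measured genes (grey), with the median in 10 signal bins (black line) and 1.5-fold lines (dashed); coloured points are the 6 genes. GOLM1, at -1.67, lies below every grey point, and the other 5 lie between -0.40 and 0.02, inside the 1.5-fold lines.

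The genes with a difference nearest to that of GOLM1, over the 2 arrays and by absolute distance, were ADH1C, ITIH2 and MMP7. ADH1C, an alcohol dehydrogenase, stood at -1.64, a distance of 0.03 from GOLM1, but its knockdown signal of 5.33 was below the floor. ITIH2, which codes for an inter-alpha-trypsin inhibitor heavy chain of plasma, stood at -1.40. MMP7, the secreted protease matrilysin, stood at -1.30, from 8.98 to 7.68.

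Genes of the pathways in which the 6 act were then described list by list, with 3 genes standing in 2 of the 9 lists. MMP7 was the only measured gene of these lists past 1.5-fold. Over all measured genes the median was -0.01 and 50.5% were lower. At the signal level of most of these lists, in the 7th and 8th of the 10 signal bins, the medians were -0.06 and -0.08, and 58.1% and 63.6% of genes were lower.

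The convertase family and the machinery that places furin showed small differences in both directions. Besides FURIN, 4 of the 8 other convertases had a row and all 4 were measured, with 2 lower and 2 higher. PCSK7, a ubiquitous convertase, stood at -0.16 and MBTPS1, the site-1 protease that activates SREBP, at -0.09. PCSK5 stood at 0.21 and PCSK4 at 0.18. Among the adaptor and sorting factors of furin 4 of 11 measured were lower and 7 higher, with a median of 0.08. The largest differences were those of AP1G1, the gamma subunit of the AP-1 adaptor, at -0.27, of PACS2 at 0.20, of AP1M1 at 0.18 and of AP1S3 at -0.16. Known furin substrates were also split, with 5 of 11 lower, 6 higher and a median of 0.03. Of these, the growth factor PDGFA stood at 0.52 and TGFB1 at 0.37, whereas the sheddases ADAM17 and ADAM10 stood at -0.36 and -0.23.

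GOLPH3 sits on a lipid that a small circuit of enzymes and carriers makes, reads and removes, and 8 of the 9 measured genes of this circuit were lower. Of its 12 genes 9 had a row of their own and all 9 were measured, with a median of -0.24. SACM1L, the phosphatase that removes phosphatidylinositol 4-phosphate, had signals of 6.96 and 6.47, a difference of -0.49. CERT1, the ceramide carrier that binds the lipid, went from 6.85 to 6.40, a difference of -0.45. PITPNB, a phosphatidylinositol carrier, stood at -0.35 and PLEKHA8, a glycolipid carrier, at -0.24. Of the kinases that make the lipid, PI4K2A stood at -0.24 and PI4KB at 0.09. The PI4KB difference was smaller than the SD of 0.133 between rows of 1 gene. The median was -0.19 with the trend over signal removed and -0.33 with each array centred on its median. SACM1L and CERT1 lay below the 5th percentile of all measured genes, -0.44, and the other 7 lay above it.

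GOLPH3 holds glycosyltransferases in the Golgi. Of 6 such enzymes 4 were measured, and 1 was lower, with a median of 0.06 that was -0.03 with each array centred on its median. EXT1, a polymerase of heparan sulfate, had signals of 9.48 and 9.91, a difference of 0.43, whereas its partner EXT2 stood at -0.06. B4GALT5, a galactosyltransferase that makes lactosylceramide, stood at 0.10 and POMGNT1, which acts on O-mannose glycans, at 0.02. ST6GAL1, a sialyltransferase, and GCNT1 were below the floor in both arrays.

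GP73 and GOLIM4 return to the Golgi from endosomes, and of 26 measured genes of endosome to Golgi retrieval 20 were lower, 5 were higher and 1, SNX2, had the same value in both arrays. In 190 measured genes the deposited values of both arrays were equal to the last digit. The median of the list was -0.13, and -0.07 with the trend over signal removed. The SNARE gene STX16 stood at -0.50, from 7.82 to 7.32. VPS29, a subunit of retromer, stood at -0.48, GOLGA4, a golgin that tethers endosome-derived vesicles, at -0.45, and GCC2, another such golgin, at -0.37. The list of golgins and matrix proteins, which shares GOLGA1, GOLGA4 and GCC2 with it, had 7 of 13 measured genes lower and 5 higher, with a median of -0.11, which was -0.04 after removal of the trend. In it TRIP11, the golgin GMAP-210, stood at -0.40 and GOLGA2, the cis-Golgi matrix protein GM130, at -0.22.

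GOLIM4 responds to manganese, and all 4 measured genes of 7 manganese transporters were lower, with a median of -0.21. That median was -0.12 with no floor, -0.12 with the floor at the 75th percentile and -0.30 with each array centred on its median. TMEM165, a Golgi protein needed for manganese supply to glycosylation, had signals of 6.25 and 5.67, a difference of -0.58, which lies just inside 1.5-fold and ends below the floor. SLC11A2, the metal importer DMT1, stood at -0.31. SLC39A14, an importer of zinc, iron and manganese, stood at -0.12 and ATP2C1, the calcium and manganese pump of the Golgi, at -0.08. Both differences were smaller in size than the SD of 0.133 between rows of 1 gene.

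Of 6 genes reported elsewhere as partners or effectors of GP73, 5 were measured and 1 passed 1.5-fold, MMP7. MMP7 was thus both one of the genes nearest to GOLM1 and a member of this list, which was drawn up with that value known. EGFR, the receptor whose recycling GP73 has been linked to, had signals of 8.06 and 8.31, a difference of 0.25. RAB11A, the GTPase of recycling endosomes, went from 8.95 to 8.64, a difference of -0.31. MMP2, another matrix protease, stood at 0.30, the transcription factor CREB1 at 0.04, and MMP13 was below the floor, at 2.86 in both arrays. All of these are RNA signals, and the amount, recycling or secretion of the proteins was not measured.

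**Figure D3:**
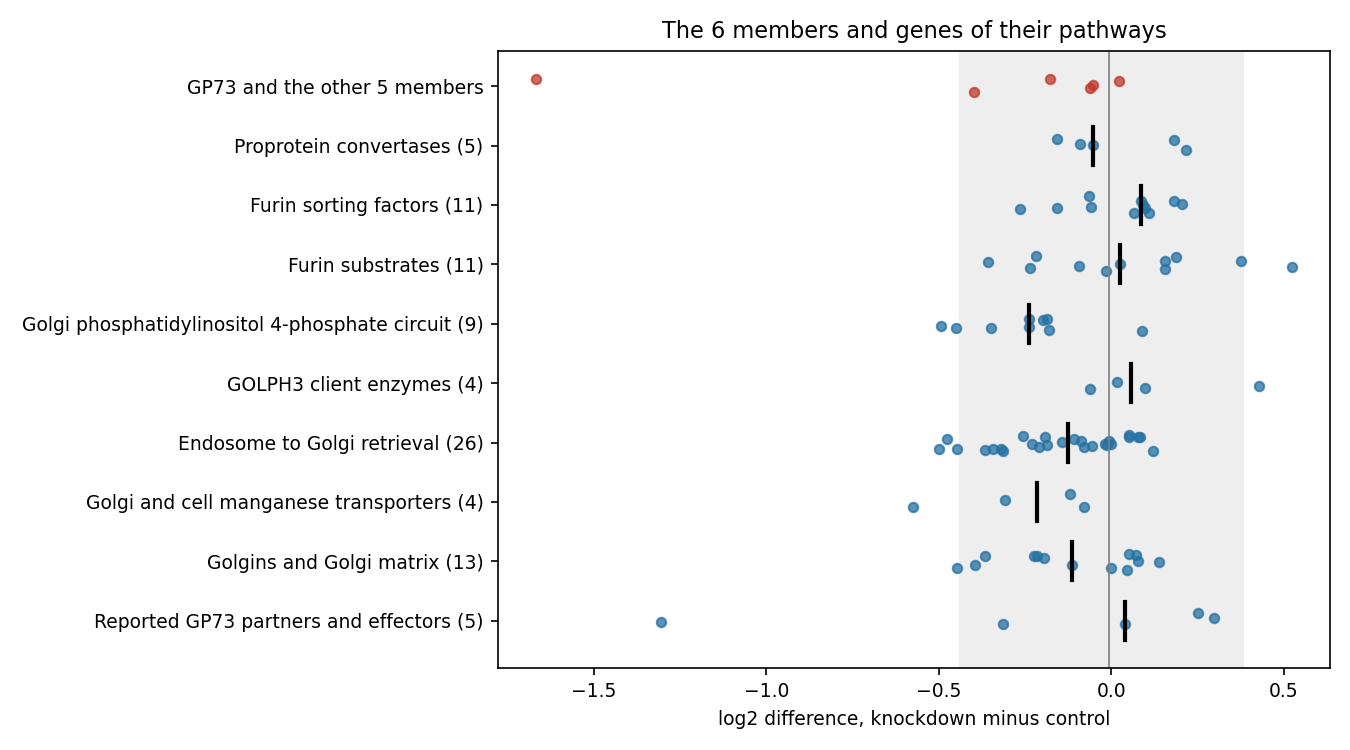
Log2 difference (knockdown minus control) of the 6 genes (red) and of the measured genes of 9 pathway lists (blue, number measured in brackets); black bars are list medians, the grey line is the median of all measured genes and the shaded band their 5th to 95th percentile, -0.44 to 0.38. GOLM1 at -1.67 and MMP7 at -1.30 stand far from all others, and the medians of the lists lie between -0.24 and 0.08.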

How the data were processed

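Total RNA of 2 cultures of MHCC97H cells was hybridised to 2 Affymetrix whole-transcript arrays, 1 per group, from 100 ng each, per the labels' protocols. The deposited values are log2 signals. The submitters' processing notes name Affymetrix Expression Console as the authors' software. Version, background correction, normalisation between arrays, probe summary and build were not given in the sources used here. Values from 0.33 to 13.3 show a log2 scale. Signals were used as deposited. The number of arrays limits the precision.

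Rows with 1 gene symbol in the platform annotation (23784 of 70523) were named and updated through the NCBI gene table of GRCh38.p14. Where a gene had more than 1 row, that of highest mean signal was used. No p-value was computed. Members, lists and thresholds were chosen with earlier results of these data known. Named were the 6 members, the 3 measured genes nearest to GOLM1 in difference, and up to 4 genes per list by absolute difference. All measured members of lists of 9 or fewer were also named. So was the nearest protein-coding gene with a row of its own on each side of each member. PI4KB, PI4K2A, SNX2, KRT8, KRT18 and SERPINA1 were named after their values were seen. So were the unmeasured ST6GAL1, GCNT1, MMP13, ALB, AFP, TTR and EPCAM. Alternatives were median centring, quantile normalisation, removal of a lowess trend, other floors, and the mean over rows. The software was pandas 2.3.3, numpy 2.4.6, statsmodels 0.14.6 and matplotlib 3.10.9 under Python 3.11.15.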

Additional observations from a re-analysis of the deposited data

How the results depend on the processing

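The 6 differences moved by less than the SD of 0.133 between rows of 1 gene under median centring, quantile normalisation, trend removal and the mean over rows, and 1 of the 6 was at least 1.5-fold lower under each. GOLM1 ranged from -1.75 to -1.59, GOLIM4 from -0.48 to -0.32 and GOLPH3L from -0.26 to -0.10. GOLM2 ranged from -0.06 to 0.10 and GOLPH3 from -0.15 to 0.01, so neither has a direction. FURIN was not measured with the floor at the 75th percentile. Genes at least 1.5-fold lower numbered 356 with median centring and 281 with no floor. Genes at least 1.5-fold higher numbered 66 with median centring, 261 with no floor, 75 with the higher floor and 71 among protein-coding genes, an alternative added after the data had been seen. Genes at least 2-fold lower numbered 23 with no floor, 9 with the higher floor and 8 among protein-coding genes, and those 2-fold higher 9 among protein-coding genes. A changed floor or gene class tests other numbers of genes, and for the centring the cause is the shift of 0.09 between the medians. The median of the reported GP73 partners was -0.31 with the higher floor, over fewer genes. The medians of the furin sorting factors, furin substrates, GOLPH3 client enzymes and reported partners changed sign under at least 1 setting, so none has a direction. No replicate could be left out. No paired analysis was possible because each group had 1 array.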

Other observations

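The protein-coding genes next to the 6 members on their chromosomes were looked up by gene order, taking on each side the nearest with a row of its own. Of 12 such neighbours 9 were measured, 7 of the 9 were lower in the knockdown array, and none differed by 1.5-fold in either direction. Over all measured genes 50.5% were lower, 1.55% at least 1.5-fold lower and 1.08% at least 1.5-fold higher, and in the 8th of 10 signal bins 63.6% were lower. NAA35, a subunit of an N-terminal acetyltransferase beside GOLM1, had signals of 7.84 and 7.54, a difference of -0.30, against -1.67 for GOLM1 itself. C9orf153, on the other side of GOLM1, was below the floor, at 2.95 and 3.01. The lowest neighbours were C5orf22 at -0.49 and the transcription factor gene MECOM beside GOLIM4 at -0.43. C5orf22 was the 3rd protein-coding gene from GOLPH3 on its side, the nearer ones having no row of their own. MTMR12, on the other side of GOLPH3, stood at -0.38, and ENSA beside GOLPH3L at -0.23. Beside GOLM2, CTDSPL2 stood at -0.15 and FRMD5 at 0.10. SERPINI1 beside GOLIM4 and HORMAD1 beside GOLPH3L were below the floor in both arrays. BLM, a DNA helicase beside FURIN, stood at -0.35. FES, a tyrosine kinase on the other side of FURIN, stood at 0.19, with a control signal of 5.82 that was below the floor.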
